A study of Arabidopsis thaliana with 8 samples.

Results

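Expansins of the alpha class (EXPA) and xyloglucan endotransglucosylase/hydrolases (XTH) are the proteins described here, as their transcripts appear in shoots of Arabidopsis thaliana seedlings. The members are 43 loci chosen by family name, 19 EXPA and 24 XTH genes, found in a table of raw read counts by the part of the model identifier before the dot. Of these loci, 39 had a row in the table, which lists 17921 gene models from 17710 loci. The series holds 8 samples, 2 for each of 4 genotypes: Col, CA1-1, cae2-1 and the combination cae2-1 CA1-1. They are described as genotypes with various cell shapes in the cotyledon, and the labels do not say what kind of change each allele is. Only the 2 columns for Col (the Columbia accession, the reference genotype, with no allele or treatment named in the labels) carry names that match sample titles, so every value below comes from Col replicates 1 and 2. The genotype comparisons were not analysed here. The seedlings were 7 days old and grew on upright agar plates with 16 h of light and 8 h of dark a day, and the whole shoot was taken, so a level is an average over all its cell types. In such bulk samples, fewer cells that express a gene and less RNA per cell cannot be told apart.

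Plant cells enlarge when turgor stretches a wall in which cellulose microfibrils are tied together by xyloglucan and other polymers. Expansins loosen that network without cutting its chains and act best at acid pH, which plasma membrane proton pumps provide. XTH enzymes cut a xyloglucan chain and rejoin it to another chain, or in some members to water, and so remodel or weaken the tethers. Both are gene families in which single members are known from growing leaves, root hairs, vascular tissue or cells that respond to touch.

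The libraries carried high levels of shoot genes and low levels of root genes. Column sums were 2571129 counts in replicate 1 and 2408685 in replicate 2. Levels are given in CPM, the count as a share of the library size in parts per 1e6, with library sizes adjusted by TMM factors (trimmed means of M values). The photosynthesis genes LHCB1.3, PSBO1 and LHCA2 had between 7213 and 10688 CPM on average, while the root markers COBL9, RHD6 (both of root hairs) and PLT1 (of the root tip) were listed at 0 in both libraries. The endodermal root marker CASP1 had 53 counts in replicate 1 and 11 in replicate 2, and 4 of 8 root markers reached 5 CPM, among them SCR and SHR, which shoots are known to express as well. Because neither Col column holds a count of 1, each 0 in them was treated as at most 1 count. The one-sided 95% Poisson limit of that is 4.74 counts (counting error only), which equals 1.90 and 1.91 CPM in replicates 1 and 2.

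The catalytic stretch of the XTH genes is shown first, as a conserved part of the copies whose reads had to be told apart. Each stretch is 27 bases of coding sequence, 5′ to 3′ on the coding strand, that hold the codons of the catalytic glutamates. Sequences and coordinates are those of RefSeq for TAIR10.1, and capitals mark bases that differ from XTH4, the most abundant member.
XTH4: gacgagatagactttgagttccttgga (chr2:2764493-2764519, plus strand)
XTH16: gacgagatagactttgagttTcttggT (chr3:8550598-8550624, plus strand)
XTH15: gacgagatagactttgagttTctAggT (chr4:8137782-8137808, minus strand)
XTH24: gaTgagatTgaTtttgagttcTtGggT (chr4:14820042-14820068, minus strand)
XTH22: gacgagatagaTttCgagttTTtAggG (chr5:23307839-23307865, minus strand)
XTH17: gaTgagatCgaTttCgagttcTtGgga (chr1:24257682-24257708, plus strand)
XTH18: gaTgagatTgaTttCgagttcTtAgga (chr4:14826569-14826595, minus strand)
XTH19: gaTgagatTgaTttCgagttTTtGggG (chr4:14829561-14829587, minus strand)
XTH31: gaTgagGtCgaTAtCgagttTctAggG (chr3:16447882-16447908, minus strand)
XTH32: gaTgagGtagacAtAgaAttTTtGggG (chr2:15474073-15474099, minus strand)
All 24 XTH members had this stretch in their reading frame. It differed from that of XTH4 at 2 to 9 of its bases, and 80.8% of the 130 differences in all fell on the third base of a codon. The search allowed only set amino acids at every codon of the stretch. That limits the number of differences and favours the third base, so neither value measures conservation. XTH31 and XTH32, placed in the group of XTH proteins with hydrolase activity, had the most differences, 9 each.

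The expansin genes were compared at the stretch around the codons of a conserved histidine, phenylalanine and aspartate, a signature of the expansin domain. These 27 bases were taken from 4 codons upstream of the signature, and capitals mark differences from EXPA6, the most abundant expansin.
EXPA6: cctcctagacctcactttgatcttgct (chr2:12432886-12432912, minus strand)
EXPA3: ccGccGCgCGAGcaTtttgatctCgcC (chr2:15789236-15789262, minus strand)
EXPA11: ccGccGCTTAAAcaTttCgaCAtGgcA (chr1:6999237-6999263, minus strand)
EXPA5: cctccCaACcACcaTttCgatcttTct (chr3:11012321-11012347, minus strand)
The signature was found in 17 of 19 expansin members, with 6 to 14 differences from EXPA6 over the 27 bases, of which 60.6% fell on the third base of a codon. The search fixed the amino acids of the signature, so within it only differences that keep them could be counted. In EXPA13 (AT3G03220) and EXPA20 (AT4G38210) these letters did not occur in the reading frame.

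The 11 expansin genes that reached a mean of 5 CPM spanned 5.42 to 267 CPM in mean level. EXPA6 (AT2G28950) was highest, with 715 and 613 counts in replicates 1 and 2, or 287 and 247 CPM (mean 267 ± 28.5 CPM, SD, n = 2). EXPA3 (AT2G37640) followed on average, with 280 and 509 counts, or 112 and 205 CPM (159 ± 65.3 CPM). In replicate 1 alone, EXPA4 came next after EXPA6, at 121 CPM. The libraries were 1.16 times apart for EXPA6, which was higher in replicate 1, and 1.82 times apart for EXPA3, which was higher in replicate 2. EXPA11 (AT1G20190) had 272 and 274 counts, or 109 and 110.2 CPM, the smallest difference among the members tested. EXPA8 (AT2G40610) had 292 and 237 counts, or 117 and 95.4 CPM. These 4 genes made up the expansins at 100 CPM or more on average.

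A second tier of expansins lay between 47.8 and 97.6 CPM on average. EXPA4 (AT2G39700) had 301 and 185 counts, or 121 and 74.4 CPM. EXPA5 (AT3G29030), known as an expansin that responds to brassinosteroid, had 120 and 348 counts, or 48.2 and 140.01 CPM. The direction of these differences was opposite, EXPA4 being higher in replicate 1 and EXPA5 in replicate 2. EXPA16 (AT3G55500) had 136 and 193 counts, or 54.6 and 77.7 CPM. EXPA15 (AT2G03090) had 115 and 123 counts, or 46.2 and 49.5 CPM, and so was nearly level in both libraries. At the low end, EXPA9 (AT5G02260) had 49 and 42 counts, or 19.7 and 16.9 CPM, and EXPA13 62 and 22 counts, or 24.9 and 8.85 CPM. EXPA20 had 15 and 12 counts, or 6.02 and 4.83 CPM. EXPA20 lies opposite to another annotated locus, AT4G38215, which holds 83.4% of its 31-base words and was itself listed with 5 and 11 counts. With no strand setting given, the few counts of EXPA20 cannot be assigned to it alone.

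**Figure D1:**
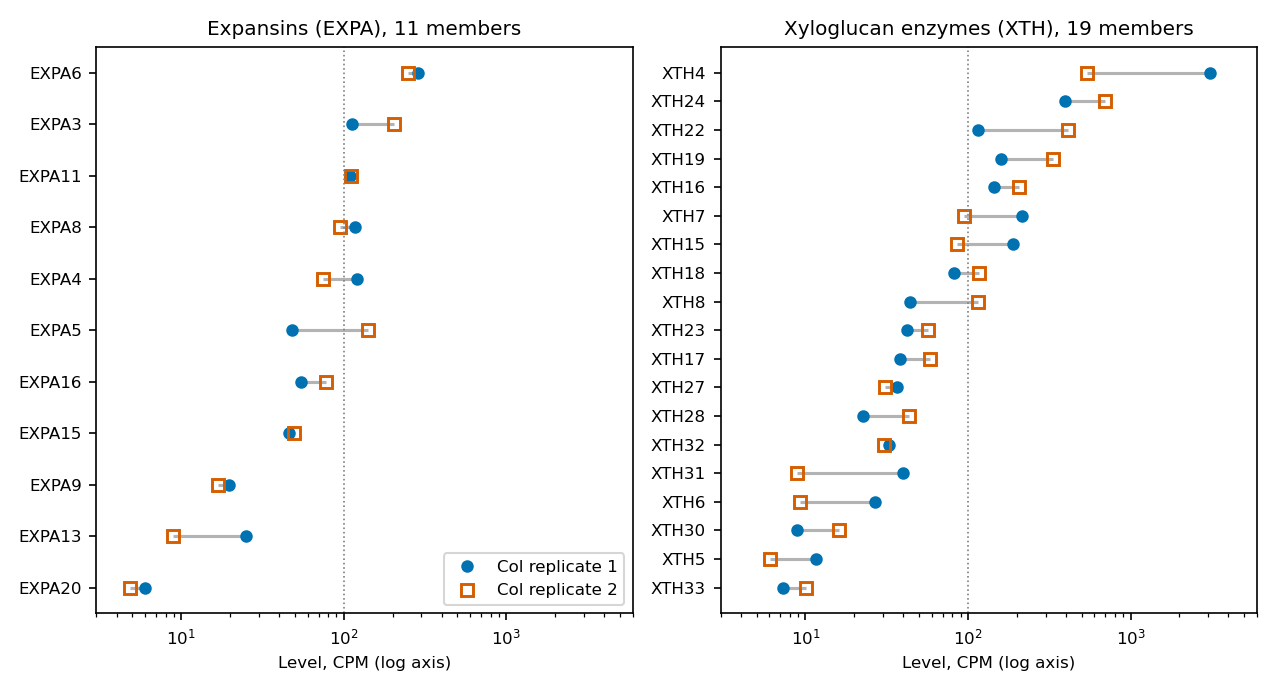
Level in CPM (log axis) of the 30 members with a mean of 5 CPM or more, expansins on the left and XTH genes on the right. Filled circles are Col replicate 1 and open squares Col replicate 2, joined by a line, and the dotted line marks 100 CPM. Expansin levels end at 287 CPM, while XTH4 reaches 3101 CPM in replicate 1.

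The XTH genes spanned a wider range, and 1 gene, XTH4, stood far above the others in replicate 1. XTH4 (AT2G06850), an endotransglucosylase gene also known as EXGT-A1, had 7727 and 1335 counts in replicates 1 and 2, or 3101 and 537 CPM (1819 ± 1813 CPM, SD, n = 2). It ranked 26th among all models in replicate 1 and 234th in replicate 2. XTH24 (AT4G30270, also MERI5B, known from meristems) had 985 and 1723 counts, or 395 and 693 CPM (544 ± 211 CPM). So the highest XTH gene was XTH4 in replicate 1 and XTH24 in replicate 2. XTH22 (AT5G57560, the touch-induced gene TCH4) had 288 and 1031 counts, or 116 and 415 CPM (265 ± 212 CPM). XTH19 (AT4G30290), known also from roots, had 398 and 834 counts, or 160 and 336 CPM (248 ± 124 CPM).

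Another 3 XTH genes reached 100 CPM on average. XTH16 (AT3G23730) had 358 and 510 counts, or 144 and 205 CPM. XTH7 (AT4G37800) had 536 and 234 counts, or 215 and 94.1 CPM. XTH15 (AT4G14130, also XTR7, known to respond to shade) had 469 and 212 counts, or 188 and 85.3 CPM. XTH16 was higher in replicate 2, whereas XTH7 and XTH15 were higher in replicate 1, and XTH7 and XTH15 passed 100 CPM in that library only. The annotated locus AT4G14120 overlaps XTH15 on the other strand, holds 29.9% of its 31-base words and was listed with 10 and 0 counts.

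The remaining 12 XTH genes at 5 CPM or more lay below 100 CPM on average. XTH18 (AT4G30280), known from roots, had 203 and 289 counts, or 81.5 and 116 CPM. XTH17 (AT1G65310), known to respond to shade, had 95 and 146 counts, or 38.1 and 58.7 CPM, and XTH8 (AT1G11545) had 110 and 285 counts, or 44.1 and 115 CPM. XTH23 (AT4G25810), a close relative of TCH4, had 105 and 141 counts, or 42.1 and 56.7 CPM. All of these were higher in replicate 2. XTH27 (AT2G01850, EXGT-A3, known from developing veins) had 91 and 77 counts, and XTH28 (AT1G14720, known from stamen filament growth) had 56 and 107 counts. XTH27 and XTH28 stood close together in mean level, at 33.8 ± 3.92 and 32.8 ± 14.5 CPM (SD, n = 2). In the group with hydrolase activity, XTH32 (AT2G36870) had 81 and 76 counts, or 32.5 and 30.6 CPM, for its first model, and its second model had 2 and 0 counts. XTH31 (AT3G44990) had 99 and 22 counts, or 39.7 and 8.85 CPM, so the members of that pair were near each other in replicate 1 but not in replicate 2. The lowest 4 were XTH6, XTH30, XTH5 and XTH33. XTH6 (AT5G65730) had 67 and 23 counts, or 26.9 and 9.25 CPM, and XTH30 (AT1G32170) had 22 and 40 counts, or 8.83 and 16.1 CPM. XTH5 (AT5G13870) had 29 and 15 counts, or 11.6 and 6.04 CPM, and XTH33 (AT1G10550), which is known as a membrane-anchored member, had 18 and 25 counts, or 7.22 and 10.06 CPM.

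The make-up of the XTH transcripts differed between the libraries, most of all in the share of XTH4. In replicate 1 it took 65.8% of the XTH counts (65.0 to 66.7, the 95% interval by Wilson's method), while in replicate 2 it took 18.7% (17.8 to 19.6). XTH24 took 8.39% (7.90 to 8.91) and 24.2% (23.2 to 25.2), and XTH22 took 2.45% (2.19 to 2.75) and 14.5% (13.7 to 15.3). In replicate 2, XTH24 therefore had the highest share. EXPA6 took 30.3% (28.5 to 32.2) and 24.0% (22.3 to 25.7) of expansin counts in the same order, and EXPA3 took 11.9% (10.6 to 13.2) and 19.9% (18.4 to 21.5). EXPA6 had the highest expansin share in both libraries. These intervals cover counting error only.

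**Figure D2:**
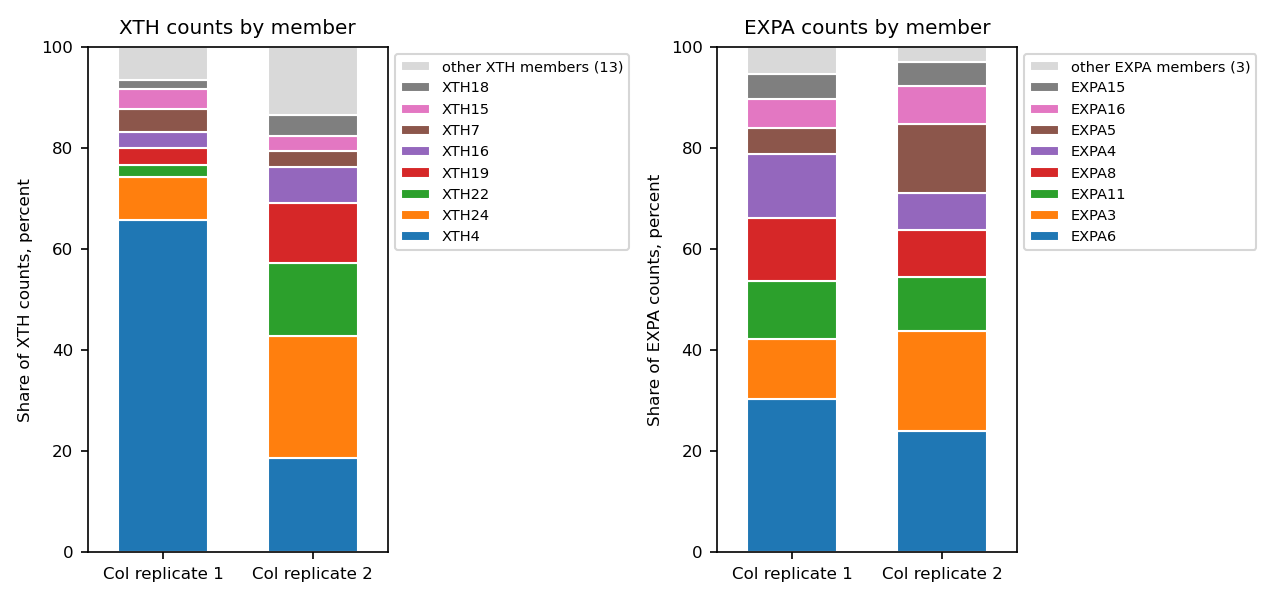
Share of XTH counts (left) and of expansin counts (right) taken by the 8 most abundant members of each family, in percent, with 1 bar for each Col library. XTH4 takes 65.8% of the left bar for replicate 1 and 18.7% of that for replicate 2, while the expansin bars differ less.

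Summed over members, the XTH genes had 4710 and 2869 CPM in replicates 1 and 2 (mean 3789.6 ± 1302 CPM, SD, n = 2). The expansins had 946 and 1029 CPM (988 ± 58.9 CPM). The XTH sum was thus 4.98 times the expansin sum in replicate 1 and 2.79 times in replicate 2. Without XTH4 the XTH genes summed to 1609 and 2332 CPM, or 1.70 and 2.27 times the expansin sum, so replicate 1 had the higher XTH sum with that gene and replicate 2 without it. Together the members took 0.548% (0.539 to 0.557) and 0.402% (0.394 to 0.410) of all listed counts, again with Wilson intervals.

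Levels of different genes were compared per transcript length, as RPKM (the CPM divided by the length in kilobases), with lengths from the listed model in the RefSeq annotation. XTH4 led with 2360.03 and 409 RPKM, followed by XTH24 with 327 and 573 RPKM, XTH19 with 120 and 251 RPKM and EXPA6 with 180 and 155 RPKM. XTH22 (72.7 and 261 RPKM), XTH16 (118 and 169), XTH7 (167 and 73.1), XTH15 (156 and 70.7), EXPA3 (67.3 and 123) and EXPA11 (83.0 and 83.8) completed the first 10. Between neighbours in this order, the values of the libraries overlapped in 27 of 29 pairs. The exceptions were XTH24, which lay above XTH19 in both libraries, and EXPA15 (32.2 and 34.5 RPKM), which lay above XTH32 (23.9 and 22.5 RPKM). The order is therefore one of tiers. XTH4 and XTH24 were at the top, 17 genes lay between 33.3 and 185 RPKM on average, and 11 lay at 23.2 RPKM or less, down to EXPA20 at 4.75 RPKM.

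**Figure D3:**
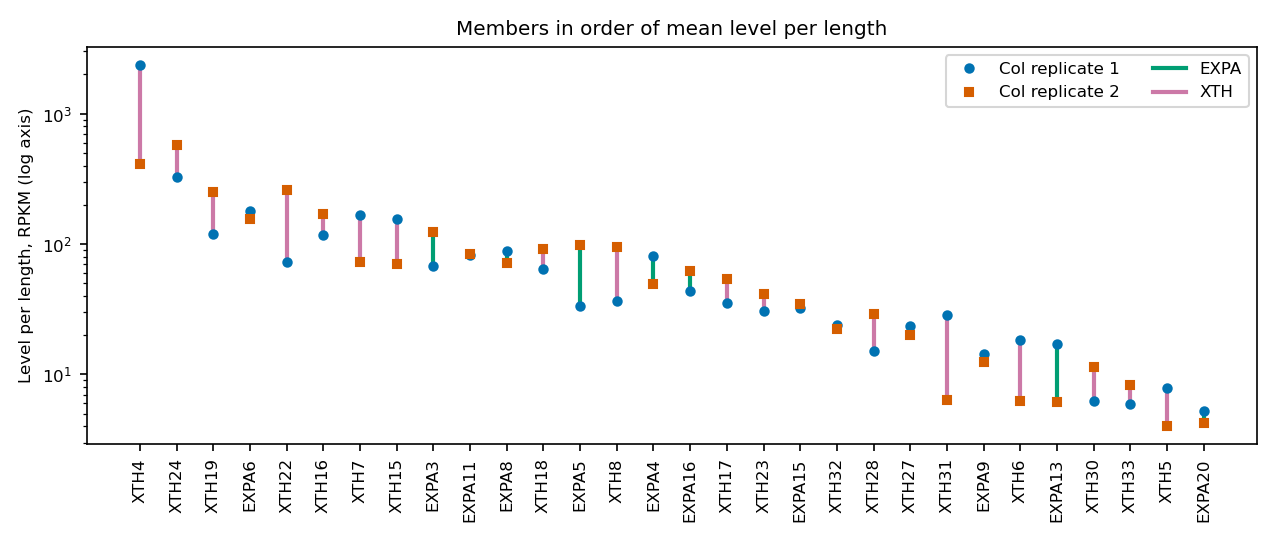
Level per transcript length in RPKM (log axis) of the 30 members at 5 CPM or more, in order of their mean. Circles are Col replicate 1, squares Col replicate 2, and the line joining them is green for expansins and pink for XTH genes. Only 2 steps of the order, from XTH24 to XTH19 and from EXPA15 to XTH32, separate genes without overlap of the 2 libraries.

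Members without counts were mostly expansins known from roots or seeds. EXPA7 (AT1G12560) and EXPA18 (AT1G62980), which are expressed in root hairs, were listed at 0 in both libraries. So were EXPA17 (AT4G01630) and EXPA14 (AT5G56320), known from lateral root formation, EXPA2 (AT5G05290), known from germinating seeds, and EXPA12 (AT3G15370). Among the XTH genes, XTH21 (AT2G18800), known from roots, was listed at 0 in both. In all, 6 of 17 listed expansins and 1 of 22 listed XTH genes were at 0 in both, where 19.2% of all listed models were. XTH20 (AT5G48070) had 0 and 2 counts and XTH25 (AT5G57550) 0 and 3, which does not differ from a listed 0 by more than counting error. The loci EXPA1 (AT1G69530), EXPA10 (AT1G26770), XTH3 (AT3G25050) and XTH9 (AT4G03210) have no row, which is not a count of 0, and their levels are not known from these data. EXPA1 is known from guard cells, EXPA10 for its part in leaf growth and XTH9 from growing stem internodes.

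The 2 Col libraries were then compared gene by gene. A two-sided exact binomial test set each model's 2 counts against the proportion of the scaled library sizes, and its p-values were adjusted by Benjamini and Hochberg's method over the 10701 models at 5 CPM or more. The test compares 2 libraries of 1 genotype with counting noise and says nothing of conditions. Of the 30 members tested, 22 (73.3%) were called, against 55.3% of all models tested. Of these, 9 were higher in replicate 1 and 13 in replicate 2, where 27.6% and 27.7% of all models were called in those directions. At least 2-fold differences were found in 10 of the 30 members, against 25.4% of all models. The median log2 ratio of replicate 1 over replicate 2 was −0.06 in the members and −0.00 in all models, and the median size of that ratio, sign aside, was 0.75 and 0.58. The test calls more models where counts are high. Among models at 100 CPM or more, a comparison added after the values were seen, 80.2% were called and 20.4% differed at least 2-fold, against 10 and 5 of the 11 members at that level.

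Members of both families were called in both directions. Of 11 expansins tested, 4 were called higher in replicate 1 and 3 in replicate 2. Of 19 XTH genes, 5 were called higher in replicate 1 and 10 in replicate 2. Of all models tested, 27.6% were called higher in replicate 1 and 27.7% in replicate 2. At 100 CPM or more, 80.2% of models were called in either direction. The split of the XTH genes between directions was not tested. XTH4 showed the largest difference of any member, 5.77-fold and higher in replicate 1, with a log2 ratio of 2.53. Only 88 of the 10701 models (0.822%) had a ratio of larger size. XTH31 was 4.49-fold higher in replicate 1 (adjusted p = 6.08e-12 by the exact binomial test), and 2.78% of models had a larger ratio. XTH22 was 3.59-fold higher in replicate 2 (adjusted p = 7.99e-97 by the same exact test), with 5.04% of models beyond it.

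Among the other members at least 2-fold apart, XTH6 (2.91-fold), EXPA13 (2.81-fold), XTH7 (2.28-fold) and XTH15 (2.21-fold) were higher in replicate 1. EXPA5 (2.91-fold), XTH8 (2.60-fold) and XTH19 (2.10-fold) were higher in replicate 2. Each of these passed the exact test. Those tested but not called were EXPA9, EXPA11, EXPA15, EXPA20, XTH5, XTH27, XTH32 and XTH33, with adjusted p from 0.0826 (XTH5) to 0.96 (EXPA11) by the exact binomial test. A miss does not show equal levels, above all for XTH33, with 18 and 25 counts, and EXPA20, with 15 and 12.

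**Figure D4:**
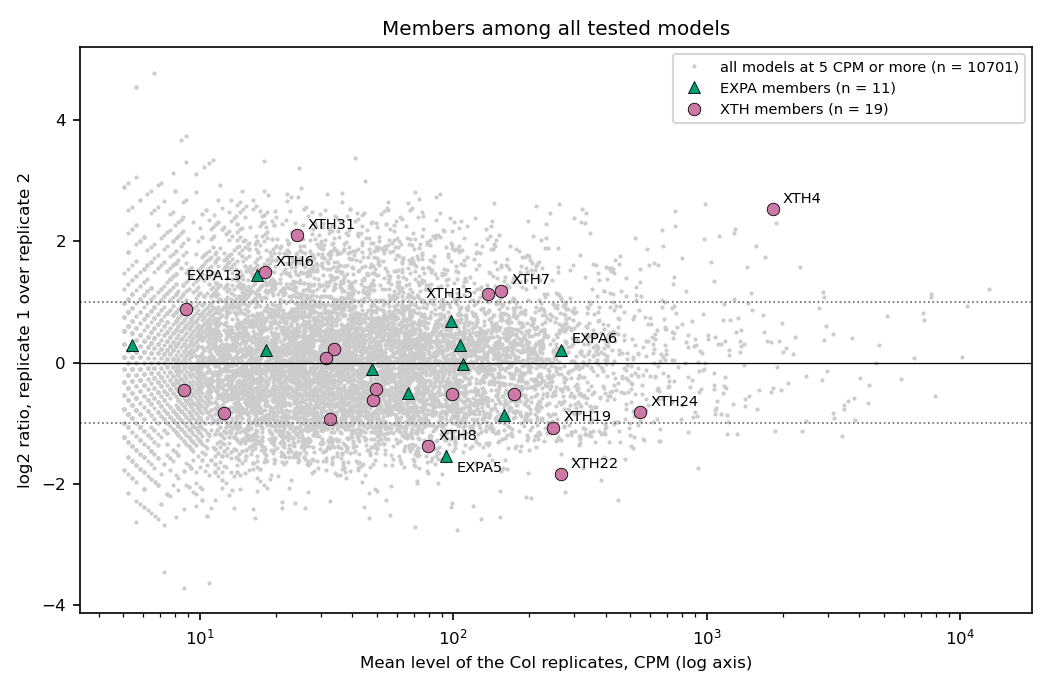
Log2 ratio of replicate 1 over replicate 2 (0.5 CPM was added to both) against mean level in CPM (log axis) for 10701 models in grey, with 11 expansins as green triangles and 19 XTH genes as pink circles. Dotted lines mark 2-fold. XTH4 at 2.53 and XTH22 at −1.84 lie farthest out among abundant members, and members fall on both sides of 0.

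Close copies were set side by side, since it is not given how reads that fit more than 1 gene were counted. Over 276 pairs of XTH members the identity of aligned coding bases ranged from 55.2% to 92.2%, with a median of 61.6%. Over 171 expansin pairs it ranged from 55.6% to 81.1%, with a median of 63.4%. The closest pair was XTH17 and XTH18 at 92.2%, followed by XTH18 and XTH19 at 89.2% and XTH17 and XTH19 at 88.6%. XTH18 and XTH19 are neighbours on chromosome 4, next to XTH24. The longest identical run of bases was 68 between XTH18 and XTH19, 51 between XTH17 and XTH19 and 47 between XTH17 and XTH18, so short reads from these runs could be counted for either gene.

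The summed count of these 3 copies is the same whichever of them such reads were assigned to, provided that the reads were kept and counted once. XTH17, XTH18 and XTH19 together had 696 and 1269 counts, which were 5.93% (Wilson interval 5.52 to 6.37) and 17.8% (16.9 to 18.7) of XTH counts. Each of them was called higher in replicate 2. Within the group, XTH19 took 57.2% (53.5 to 60.8) and 65.7% (63.1 to 68.3), XTH18 took 29.2% and 22.8%, and XTH17 took 13.6% and 11.5%. The order XTH19, XTH18, XTH17 was the same in both libraries. XTH20, which is 84.3% to 85.6% identical to them, had no more than 2 counts in a library.

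Other close pairs were less alike in sequence, some with unlike and some with like levels. XTH15 and XTH16, 81.7% identical, were called in opposite directions, XTH15 higher in replicate 1 and XTH16 in replicate 2. XTH22 and XTH23, 80.9% identical, were both higher in replicate 2, and XTH22 had 265 CPM on average against 49.4 CPM for XTH23. XTH27 and XTH28, 77.7% identical, had similar means of 33.8 and 32.8 CPM, although XTH28 was called and XTH27 was not. EXPA7 and EXPA18, 75.4% identical, were both listed at 0. XTH6 and XTH7, 73.2% identical, were both higher in replicate 1, at 18.1 and 155 CPM on average. XTH4 and XTH5, at 72.5%, had no identical run over 22 bases, and XTH5 had 8.84 CPM on average. Among expansins, EXPA4 and EXPA16 were 81.1% identical and were called in opposite directions. Of all 43 members, 29 shared no 31-base word with the annotated transcripts of any other locus, XTH22, XTH24, XTH7, XTH16 and EXPA6 among them. XTH4 shared 2 of its 1284 words.

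**Figure D5:**
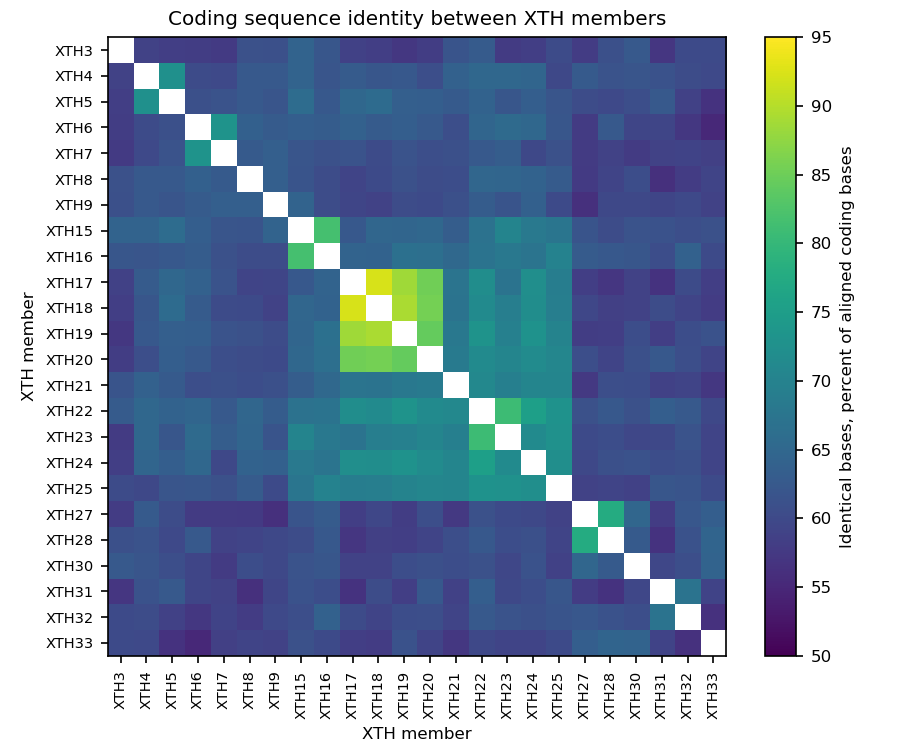
Identity between the coding sequences of the 24 XTH members, in percent of aligned bases, coloured from 50 to 95. The block of XTH17 to XTH20 holds the highest values, up to 92.2%, and most other pairs lie near the median of 61.6%.

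Few of the listed relatives outside these members reached 5 CPM, and none of them reached 100 CPM. Members and relatives were listed with earlier results of these data known, so no difference between the groups is read from this. Of 17 further expansins (the remaining EXPA, the beta class and the expansin-like genes), 7 were listed and 3 reached 5 CPM. They were EXLA1 (34.1 and 50.7 CPM), EXLA2 (21.7 and 21.3 CPM) and EXPB1 (7.22 and 7.64 CPM), while EXLB1 stood at 4.41 and 4.83 CPM. EXLA1 was called higher in replicate 2, and the other tested genes were not called, where 55.3% of all models were. Of 9 further XTH genes, 5 were listed, none reached 5 CPM, and 4 were at 0 in both libraries. XTH10 alone had counts, 4 and 6.

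Genes that make xyloglucan were broadly present. Of 15 genes on this list, 14 were listed and 13 reached 5 CPM, with 6 at 100 CPM or more. The xylosyltransferase gene XXT2 had 367 and 319 CPM, MUR1, which makes the fucose donor GDP-fucose, 193 and 154 CPM, and the backbone synthase genes CSLC5 and CSLC4 135 and 173 CPM and 135 and 168 CPM. Of the 13 tested, 9 were called, where 55.3% of all models were. Of these, 4 were higher in replicate 1 and 5 in replicate 2, and the median log2 ratio of the 13 was 0.03. XXT2 and MUR1 were higher in replicate 1 and CSLC4 and CSLC5 in replicate 2, with log2 ratios between −0.35 and 0.33. Some genes of lower level differed more, with log2 ratios of 1.44 for CSLC6, −1.37 for XXT3 and −0.88 for MUR3. Others did not, with 0.13 for CSLC8 and −0.21 for AXY4, neither of which was called. All of these were named after their values were seen. XXT1 had no row.

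Genes for enzymes that trim xyloglucan in the wall were present as well. Of 5 on this list, 4 were listed and 2 reached 100 CPM on average, while AT5G20950 had no row. The xylosidase gene XYL1 had 701 and 520 CPM, the fucosidase gene AXY8 271 and 200.4 CPM, the galactosidase gene BGAL10 59.8 and 139 CPM and the locus AT5G04885 47.4 and 82.9 CPM. XYL1 and AXY8 were called higher in replicate 1, and BGAL10 and AT5G04885 in replicate 2. Among all models tested 55.3% were called, and among those at 100 CPM or more 80.2%. Of the plasma membrane proton pumps, which acidify the wall, 7 of 11 were listed and 4 reached 5 CPM. AHA2 had 744 and 980.1 CPM and was higher in replicate 2, and AHA1 had 449 and 146 CPM and was higher in replicate 1. AHA11 had 81.9 and 138 CPM and AHA8 2.81 and 8.45 CPM, both called higher in replicate 2. All 4 pumps tested were thus called, beside the same shares of all models. The pump sums were 1281 and 1280.3 CPM, nearly the same in both libraries although AHA1 and AHA2 differed in opposite directions.

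Marker lists also differed between the libraries, and their part in the members' differences was not tested. Of the 8 genes on the rapid touch and stress list, TCH2, TCH3 and CML38, which encode calmodulin-like proteins, had no row, so the touch genes of that list were not measured. The 5 listed genes encode stress-related transcription factors. All 5 were called, 4 higher in replicate 2 and 1, ERF104, in replicate 1, where 55.3% of all models were called and 27.7% were called higher in replicate 2. Their sums were 392 and 1169 CPM. WRKY40 had 149 and 499 CPM, ZAT10 71.0 and 335 CPM and WRKY33 44.5 and 261 CPM. XTH22, the touch-induced member, was higher in replicate 2 as well. The 3 listed photosynthesis markers were all higher in replicate 1, with sums of 33433 and 17690 CPM, as XTH4 was. Of all models at 100 CPM or more, 80.2% were called in either direction. The vascular markers SUC2 and XCP2 were called higher in replicate 2, IRX3 (13 and 10 counts) was below 5 CPM, and the sums were 132 and 309 CPM. Of the epidermis markers, PDF1 was higher in replicate 2 (333 and 665 CPM) and LTP1 in replicate 1 (2004 and 1580.4 CPM). The guard cell gene KAT1 was higher in replicate 1 (222 and 47.9 CPM), while FAMA, of the same cell type, was not called (62.6 and 67.2 CPM). The root list summed to 43.7 and 34.6 CPM, with 1 gene called in each direction, with COBL9, RHD6 and PLT1 at 0 in both.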

How the data were processed

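The authors deposited a table of read counts for gene models, whose column headers call them raw. Per the submitters' processing notes, TAIR10 was the build. For the aligner, counter, strand setting, read length, filters and treatment of shared reads, the sources used here give nothing. Columns were matched to samples by name. A further 6 count columns match no sample title and were not used.

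TMM factors were computed over all models (edgeR 4.0.16, R 4.3.3), and where a locus had several models the one with the highest summed count was used. Exact binomial tests were run in scipy 1.17.1 on all models with a mean of at least 5 CPM, at an adjusted p of 0.05. Log2 ratios used 0.5 CPM added to each library. The common biological coefficient of variation was 0.411. The series' design text calls the replicates biological without naming plates or days, so the SD is the spread between these 2 samples only. The test step was checked on simulated counts with planted differences in some models and counting noise as the only spread. That check covers the arithmetic of the test and not the spread between samples.

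Lengths and sequences came from the RefSeq annotation of TAIR10.1 by model number for the 39 listed members, and from the longest model for the 4 members with no row. No coordinates come from the count table, and those printed belong to TAIR10.1. Coding sequences were aligned globally with Biopython 1.88, and words of 31 bases were compared on both strands. Coding sequences were translated only to find the printed stretches, and no protein sequences are printed. The members and the 11 other lists (85 genes) were chosen with earlier results of these data known. All members are named. From each other list of the pathway up to 4 genes of highest level are named, and the marker genes named were chosen after their values were seen.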

Additional observations from a re-analysis of the deposited data

How the results depend on the processing

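The count of members called stayed between 19 and 22, but out of different numbers tested. In the main setting it was 22 of 30, where 5913 of 10701 models were called. With a filter at 20 CPM it was 19 of 23, where 4662 of 6994 models were called. Without a filter it was 19 of 39, where 5839 of 17921 models were called. The settings included RLE factors, no scaling factors, library sizes taken from the numbers in the column names and summed models. They also included other filters (a mean of 1 or 20 CPM, or none) and a two-sided p taken as double the smaller tail. That last setting was chosen after seeing the data. Over 290 values of single members under these settings and 2 other pseudocounts, 281 kept direction and call, 8 lost the call and 1, XTH32, changed sign (log2 ratio −0.0022 without scaling factors). Part of the 281 was fixed in advance. The 30 values under each pseudocount could change neither direction nor call, and the filters and the doubled tail could not change direction. XTH30 lost its call under RLE factors, without a filter and with the doubled tail (adjusted p by the exact binomial test 0.0533 to 0.0659). EXPA8 lost it in 3 settings, and EXPA6 and XTH23 in 1 each. With library sizes taken from the column names, 5 members in place of 11 reached 100 CPM, since those numbers, whose meaning is not stated, are larger than the column sums. Levels in CPM then fall by over 1.5 times, for example to 145 CPM for EXPA6, 298 CPM for XTH24 and 982 CPM for XTH4. The XTH sum was 1970.5 CPM without XTH4, an alternative chosen after seeing the data, and 2869 to 4710 CPM when either library was left out. Of the 10 members highest per length, 10 were the same with coding length, 7 in replicate 2 alone and 8 in replicate 1 alone. No paired analysis was possible because only the Col columns could be matched to samples. Counts under about 5 cannot be told from 0 at this depth.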

Other observations

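Whether a locus has a row was related to its number of annotated models. Of nuclear protein-coding loci with 1 model in the TAIR10.1 annotation, 66.3% (11098 of 16749) were listed, and of those with 2 or more models 53.1% (5682 of 10695). Among the expansin and XTH members, 31 of 32 loci with 1 model and 8 of 11 with 2 or more were listed. EXPA1, with 5 annotated models, and EXPA10 and XTH9, with 2 each, were among the 4 without a row, and XTH3, with 1 model, was the other. A summed family level therefore leaves out these loci, and no value for them is implied.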
